A study of Mus musculus with 9 samples.

Results

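De novo lipogenesis, the making of fatty acids from acetyl-CoA, was followed through 10 genes in mouse liver: Thrsp, Me1, Fasn, Acaca, Acacb, Acly, Scd1, Elovl6, Srebf1 and Pnpla3. They were chosen by name, as the enzymes of the pathway with its regulators Thrsp and Srebf1, and all 10 were found among the 17154 genes present in both deposited count tables. RNA-seq had been performed on livers of male C57BL/6 mice in 3 groups of 3 libraries. Control mice (CT) were untreated and aged about 8 to 12 weeks, with C57BL/6J named as their strain in the protocol. Hypothyroid mice (MMI) drank water with 0.1% methimazole, an inhibitor of thyroid hormone synthesis, for 20 days, and the study's methods add perchlorate, which blocks iodide uptake. MMI+T3 mice were hypothyroid mice given 5 daily injections of T3 (triiodothyronine, the hormone form that binds the nuclear receptors), with livers taken 24 hours after the last of them. Both treated groups had therefore received methimazole and perchlorate. Ages were labelled for CT only, while the study's methods give about 8 to 12 weeks for its mice in general. Effects of the drugs on the liver and those of hormone loss cannot be told apart in MMI against CT.

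In the liver, ATP citrate lyase (Acly) releases acetyl-CoA from citrate in the cytosol, acetyl-CoA carboxylases (Acaca, Acacb) turn it into malonyl-CoA, and fatty acid synthase (Fasn) builds palmitate with NADPH that malic enzyme (Me1) helps to supply. Palmitate is then lengthened by Elovl6 and desaturated by Scd1. Transcription of these genes is controlled by insulin through SREBP-1c, a product of Srebf1, by carbohydrate through ChREBP, a product of Mlxipl, and by thyroid hormone, whose nuclear receptors bind response elements built from the letters AGGTCA. Thrsp, also known as Spot 14, is a small protein of lipogenic tissues named for its response to thyroid hormone. Pnpla3 encodes a lipid droplet protein that acts on acylglycerols and is a known SREBP-1c target.

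The sequences upstream of the RefSeq start sites of 5 members are shown because these genes had the largest fold changes between MMI+T3 and MMI among the members. They come from RefSeq (GRCm38.p6), run over the 250 bases before the start site in the direction of transcription, and have capitals at CCAAT boxes (CCAAT), GC boxes (GGGCGG) and the letters AGGTCA, each on either strand. The windows are chr7:97417551-97417800 on the minus strand for Thrsp, chr9:86695915-86696164 on the minus strand for Me1, chr11:120824548-120824797 on the minus strand for Fasn, chr5:114165268-114165517 on the plus strand for Acacb and chr15:84167566-84167815 on the plus strand for Pnpla3.
Thrsp: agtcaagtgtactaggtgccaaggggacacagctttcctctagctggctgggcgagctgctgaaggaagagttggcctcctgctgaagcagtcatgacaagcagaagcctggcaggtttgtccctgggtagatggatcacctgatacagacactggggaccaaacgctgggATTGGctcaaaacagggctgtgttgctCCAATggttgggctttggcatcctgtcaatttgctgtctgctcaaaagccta
Me1: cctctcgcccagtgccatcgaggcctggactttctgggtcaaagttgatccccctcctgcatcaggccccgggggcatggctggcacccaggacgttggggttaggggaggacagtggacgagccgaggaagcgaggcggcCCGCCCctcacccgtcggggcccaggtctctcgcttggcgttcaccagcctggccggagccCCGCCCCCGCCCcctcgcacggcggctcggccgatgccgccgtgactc
Fasn: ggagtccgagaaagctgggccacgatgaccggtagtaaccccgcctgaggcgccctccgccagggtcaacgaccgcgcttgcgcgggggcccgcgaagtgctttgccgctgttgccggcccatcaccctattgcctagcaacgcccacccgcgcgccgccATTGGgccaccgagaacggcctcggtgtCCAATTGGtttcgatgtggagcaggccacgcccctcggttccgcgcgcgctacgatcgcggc
Acacb: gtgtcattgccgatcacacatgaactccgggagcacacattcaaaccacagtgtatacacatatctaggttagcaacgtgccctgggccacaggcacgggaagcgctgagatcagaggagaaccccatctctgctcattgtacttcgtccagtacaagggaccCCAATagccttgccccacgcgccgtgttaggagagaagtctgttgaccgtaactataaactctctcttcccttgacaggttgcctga
Pnpla3: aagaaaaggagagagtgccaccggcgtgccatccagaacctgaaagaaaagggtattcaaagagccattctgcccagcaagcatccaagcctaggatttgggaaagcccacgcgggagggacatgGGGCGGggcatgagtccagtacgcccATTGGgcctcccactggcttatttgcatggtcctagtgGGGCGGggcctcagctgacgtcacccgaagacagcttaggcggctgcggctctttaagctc

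RefSeq windows of 300 bases, which add the 50 bases from the start site onwards, were matched for 9 of the 10 members. The exception was Scd1. CCAAT was present in 6 of the 9 (Thrsp, Fasn, Acacb, Acly, Srebf1 and Pnpla3), compared to 37.4% of 32851 promoter windows. In Fasn its matches began at -90, -62 and -59 from the start site, and the last pair shares letters. GGGCGG was found in Me1, Acly and Pnpla3, compared to 35.7% of windows, with 4 matches in Me1. AGGTCA was found in Acacb, Acly and Elovl6, compared to 16.3% of windows. None of the 9 windows held the sterol response element letters TCACNCCAC (1.24% of windows), the E-box CACGTG (7.15%), a direct repeat of AGGTCA with 4 bases between its parts (0.0152%) or the ChREBP element, a spaced pair of E-boxes. The ChREBP letters as searched were in 0 of 32851 windows, so their absence here carries no information about the members. These matches describe letters only, and elements farther away were not searched. The RefSeq start sites used for Acaca and Acacb lie inside these genes as GENCODE annotates them, so their windows do not precede the first annotated exon. Srebf1 had 3 RefSeq windows and Me1 had 2, and only the window nearest the annotated gene start was used. Which Srebf1 transcript that window belongs to was not examined.

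In GRCm38 (GENCODE M21), 4 members lie on chromosome 11, namely Srebf1 (ENSMUSG00000020538) from 60199089 to 60222581 on the minus strand, Acaca (ENSMUSG00000020532) from 84129672 to 84401651 on the plus strand, Acly (ENSMUSG00000020917) from 100476353 to 100528000 on the minus strand and Fasn (ENSMUSG00000025153) from 120805846 to 120824547 on the minus strand. Thrsp (ENSMUSG00000035686) occupies 97412938 to 97417730 of chromosome 7, minus strand, and Me1 (ENSMUSG00000032418) 86581371 to 86695953 of chromosome 9, minus strand. Chromosome 5 holds Acacb (ENSMUSG00000042010) from 114146535 to 114250761 on the plus strand, and chromosome 15 holds Pnpla3 (ENSMUSG00000041653) from 84167837 to 84187236 on the plus strand. Elovl6 (ENSMUSG00000041220) spans 129532355 to 129638495 of chromosome 3, plus strand, and Scd1 (ENSMUSG00000037071) 44394455 to 44407879 of chromosome 19, minus strand. Counts were taken over whole genes and do not separate exons or isoforms, such as the SREBP-1a and SREBP-1c transcripts of Srebf1.

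Library totals ranged from 17256776 to 22599227 counts, so that each member except Pnpla3 had at least 1016 counts in every library. MMI replicate 3 had the lowest total and the highest mitochondrial share, 4.99% of its counts, where all others had 3.29% to 3.76%. Values below are CPM, counts relative to library totals that were scaled by TMM over all 9 libraries. As a check of the labels, Dio1, the T3-induced deiodinase gene, was between 3.13 and 4.67 CPM in MMI, 44.1 and 80.6 CPM in CT and 858 and 947 CPM in MMI+T3. Serpina7, the thyroxine-binding globulin gene, went the opposite way, with 126 to 152 CPM in MMI, 19.4 to 25.1 CPM in CT and 0.31 to 0.54 CPM in MMI+T3. Both genes separated the 3 groups without overlap. Scaling by library totals alone raised the median log2 fold change of all genes by 0.132 in MMI against CT and by 0.107 in MMI+T3 against CT. With it, 66.4% of the calls in MMI against CT were higher, compared to 47.0% with TMM, and 68.9% compared to 52.0% in MMI+T3 against CT. The CT libraries were deposited in a table of their own, so table and group cannot be told apart in comparisons with CT.

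To determine how T3 changed the pathway in hypothyroid liver, the MMI+T3 group was compared to the MMI group. Of the 10 members, 8 rose at an edgeR quasi-likelihood adjusted p under 0.05 and all 10 log2 fold changes were above 0, where 9.83% of 14109 genes rose and 7.18% fell. Thrsp, Me1, Fasn, Acaca, Acacb, Acly, Elovl6 and Pnpla3 rose, and Scd1 and Srebf1 did not pass the test. The median log2 fold change of the members was 2.22, compared to -0.02 over all genes tested. In 9 members, all but Srebf1, every MMI+T3 library lay above every MMI library, as it did for 19.1% of genes. The count of members called was 7 to 10 when each library was left out in turn. Values of bulk liver cannot tell fewer or more cells of a type from less or more RNA per cell.

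**Figure D1:**
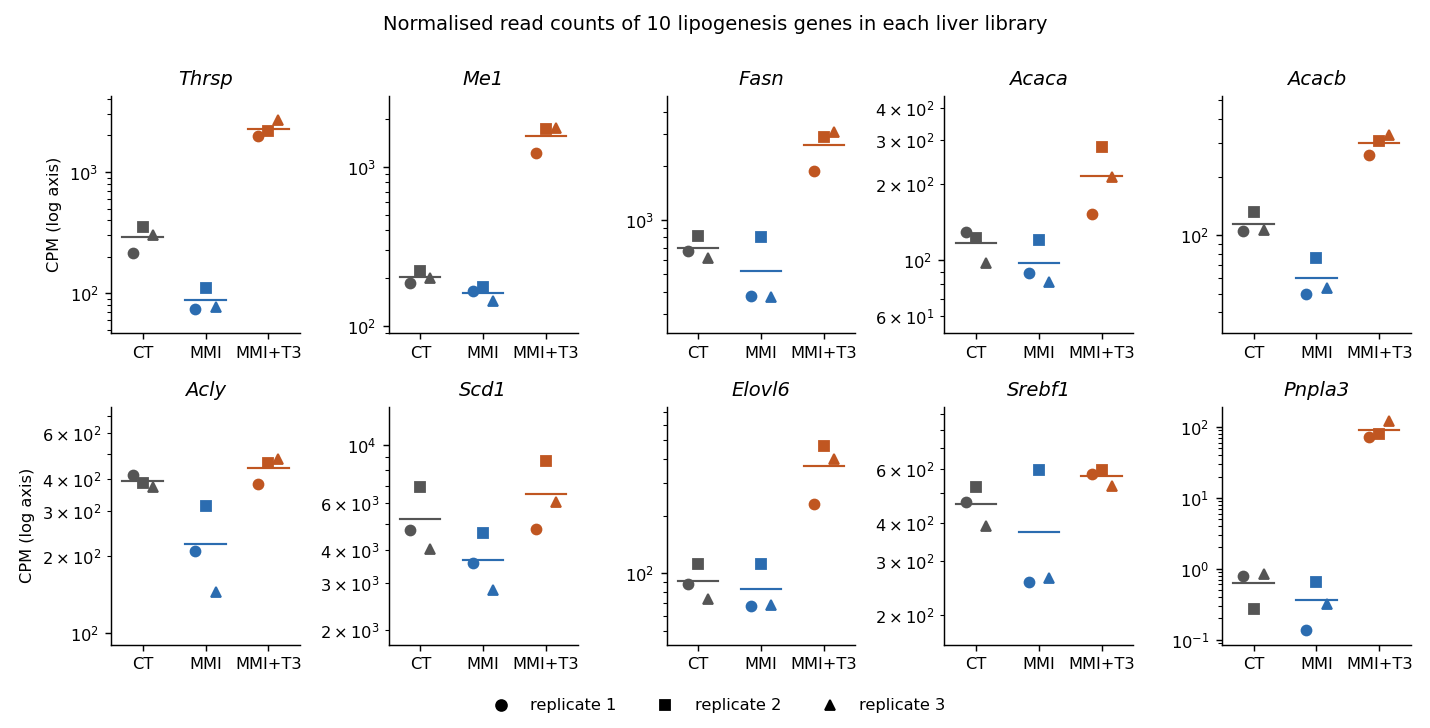
Each panel plots the CPM of a member gene on a log axis for the CT, MMI and MMI+T3 groups; points are libraries, shaped by replicate number, and lines are group means. Thrsp, Me1, Fasn, Acaca, Acacb, Elovl6 and Pnpla3 have all MMI+T3 points above all other points, while Srebf1 has MMI replicate 2 at 596 CPM, level with the highest MMI+T3 library.

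Among the regulators, Thrsp was 75.0, 110.2 and 77.8 CPM in the MMI libraries and 1971, 2194 and 2662 CPM in MMI+T3. Its CT libraries had 214, 352 and 304 CPM, between the other groups and overlapping neither. Its log2 fold change in MMI+T3 against MMI was 4.68 (adjusted p = 4.84e-07 by edgeR, SE 0.22), 25.7-fold. Srebf1 was 257, 596 and 265 CPM in MMI and 574, 595 and 529 CPM in MMI+T3. MMI replicate 2 thus stood at the level of the MMI+T3 libraries, and the other MMI libraries at less than any of the CT libraries (466, 522 and 391 CPM). The log2 fold change of Srebf1 was 0.59 (95% interval -0.04 to 1.21, adjusted p = 0.193 by edgeR). Without MMI replicate 2 it was 1.09 and Srebf1 was called (adjusted p = 0.00114). Rai1, a gene whose annotation overlaps Srebf1, may share reads with it, since the strand setting of the counting was not given.

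Me1, the cytosolic malic enzyme, was 166, 175 and 144 CPM in MMI and 1230, 1745 and 1761 CPM in MMI+T3. Its MMI libraries spanned a narrow range, and the lowest MMI+T3 library was far above the highest of any other group. It rose by 3.27 on the log2 scale (adjusted p = 1.63e-06 by edgeR, SE 0.19), 9.66-fold. Acly, which supplies cytosolic acetyl-CoA, was 209, 314 and 144 CPM in MMI and 381, 460 and 476 CPM in MMI+T3. The MMI+T3 values lay around those of CT (414, 385 and 371 CPM). Its log2 fold change was 0.97 (adjusted p = 0.0187 by edgeR, SE 0.24), and the call was lost without MMI replicate 1 (0.0719), MMI+T3 replicate 2 (0.0504) or MMI+T3 replicate 3 (0.0595).

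Both acetyl-CoA carboxylases rose. Acaca, whose cytosolic product feeds fatty acid synthase, was 89.0, 121 and 82.0 CPM in MMI and 152, 280 and 213 CPM in MMI+T3, a log2 fold change of 1.13 (adjusted p = 0.0055 by edgeR, SE 0.22). Acacb, the mitochondrial carboxylase whose malonyl-CoA restrains fatty acid oxidation, was 49.9, 76.3 and 53.3 CPM in MMI and 260, 308 and 329 CPM in MMI+T3, a log2 fold change of 2.30 (adjusted p = 1.5e-05 by edgeR, SE 0.19). Within each library, the ratio of Acacb to Acaca counts per exon length was 0.994, 1.12 and 1.15 in MMI, 1.43, 1.90 and 1.93 in CT and 3.04, 1.95 and 2.74 in MMI+T3. The 3 groups did not overlap in this ratio, although MMI+T3 replicate 2 was only just above the highest CT library. The mean log2 ratio differed by 1.22 in MMI+T3 minus MMI, by -0.68 in MMI minus CT and by 0.54 in MMI+T3 minus CT, each with an exact two-sided permutation p of 0.1, the smallest that 3 against 3 libraries allow. The differences between groups do not depend on the lengths used, but the level of the ratio does, and with the longest transcripts it was 0.607 to 0.704 in MMI.

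Fasn, which makes palmitate, was 376, 802 and 375 CPM in MMI and 1875, 2891 and 3075 CPM in MMI+T3. MMI replicate 2 was again high, at the level of the CT libraries (673, 812 and 615 CPM). Fasn rose by 2.32 on the log2 scale (adjusted p = 5.01e-04 by edgeR, SE 0.32). Elovl6, the elongase that turns palmitate into stearate, was 67.7, 112 and 68.6 CPM in MMI and 232, 468 and 398 CPM in MMI+T3, and rose by 2.13 on the log2 scale (adjusted p = 3.8e-04 by edgeR, SE 0.28). Scd1, the stearoyl-CoA desaturase of liver, was 3589, 4641 and 2823 CPM in MMI and 4791, 8668 and 6059 CPM in MMI+T3. Its groups did not overlap, but the lowest MMI+T3 library was only slightly above the highest MMI library. The log2 fold change of Scd1 was 0.80 (95% interval 0.25 to 1.36, adjusted p = 0.0504 by edgeR), and it was called by the DESeq2 Wald test (adjusted p = 0.00351). The other Scd genes are close copies that could share its reads. Scd2 was 7.62, 20.3 and 8.77 CPM in MMI and 21.9, 22.9 and 26.9 CPM in MMI+T3, with MMI replicate 2 near the MMI+T3 level (log2 fold change 0.95, adjusted p = 0.0608 by edgeR). It was called by the DESeq2 Wald test (0.0132), with the replicate number as a block (0.0276) and without MMI replicate 2 (log2 fold change 1.52, adjusted p = 2.9e-04 by edgeR).

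Pnpla3 had the largest fold change of the members. It had 3, 15 and 6 counts in the MMI libraries and 1396, 1631 and 2489 counts in MMI+T3, or 0.14, 0.64 and 0.31 CPM and 73.0, 79.3 and 121 CPM. The CT libraries were as low as MMI, with 17, 5 and 17 counts. The log2 fold change was 7.90 (adjusted p = 4.84e-07 by edgeR, SE 0.37), and it ranked 18 among 14109 genes. Pnpla5, a lipase gene of the same family, was not a member and had 0 counts in all MMI libraries and 194, 293 and 319 counts in MMI+T3. Against a floor of 3 counts over the MMI group it was at least 278-fold higher (adjusted p = 4.33e-06 by edgeR). It was not among the genes listed for CT, so it has no CT value. Several annotated genes overlap Pnpla3, Gm20369 and Gm49513 among them, and could share its reads.

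**Figure D2:**
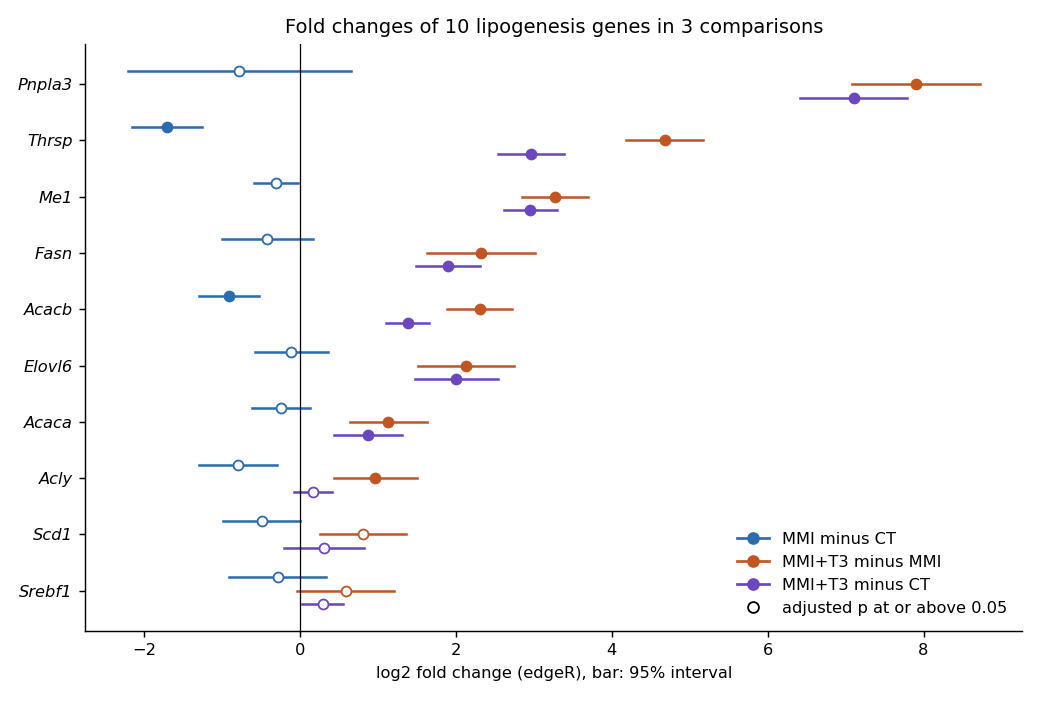
The log2 fold change of each member is plotted for MMI minus CT, MMI+T3 minus MMI and MMI+T3 minus CT, with bars for 95% intervals and open points where the edgeR adjusted p was at or above 0.05. The values in MMI+T3 minus MMI run from 0.59 for Srebf1 to 7.90 for Pnpla3, and in MMI minus CT only Thrsp and Acacb have filled points.

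The members took different parts of the pool of lipogenic transcripts in the groups. Summed over the 10 genes they reached 7036, 9569 and 6185 CPM in CT, 4880, 6947 and 4033 CPM in MMI and 11540, 17690 and 15620 CPM in MMI+T3. Scd1 made up 65.1% to 73.5% of the sum in CT and MMI libraries but 38.8% to 49.0% in MMI+T3. Per kilobase of exon sequence, Scd1 was the highest member in CT, at 1070 ± 306 CPM per kb (SD, n = 3). Thrsp (132 ± 32), Srebf1 (81.6 ± 11.7), Acly (73.8 ± 4.2), Fasn (63.9 ± 9.2) and Me1 (52.6 ± 4.7) followed on the same scale. Neighbours in this order from Srebf1 to Me1 did not differ beyond their spread, nor did Elovl6 and Acacb. Elovl6 (14.1 ± 3.0), Acacb (11.8 ± 1.5), Acaca (6.83 ± 0.98) and Pnpla3 (0.41 ± 0.20) were lowest. In MMI+T3, Thrsp reached 1040 ± 161 CPM per kb, within the spread of Scd1 at 1330 ± 404, and Pnpla3 reached 58.8 ± 16.9, above Acaca at 12.6 ± 3.8. Levels and order depend on the length used, and with the longest transcripts Thrsp was 207 and Acaca 12.3 CPM per kb in CT.

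Since Srebf1 encodes SREBP-1c, a main activator of these genes, the members were also set against Srebf1 within each library. This ratio was examined after the values had been seen and is given without a test. Fasn to Srebf1 was 1.44, 1.55 and 1.57 in CT and 1.46, 1.35 and 1.42 in MMI, so that all 6 libraries lay in a narrow range in spite of the more than 2-fold difference in Fasn between MMI libraries. In MMI+T3 it was 3.27, 4.86 and 5.82. Thrsp to Srebf1 was 0.458 to 0.776 in CT, 0.185 to 0.294 in MMI and 3.43 to 5.04 in MMI+T3. Scd1 to Srebf1 overlapped in all groups, with 10.2 to 13.2 in CT, 7.79 to 13.95 in MMI and 8.34 to 14.6 in MMI+T3. Acly to Srebf1 also overlapped, with 0.663 to 0.901 in MMI+T3 and 0.527 to 0.947 over the other 6 libraries, as did Acaca to Srebf1, with 0.264 to 0.471 and 0.202 to 0.346.

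**Figure D3:**
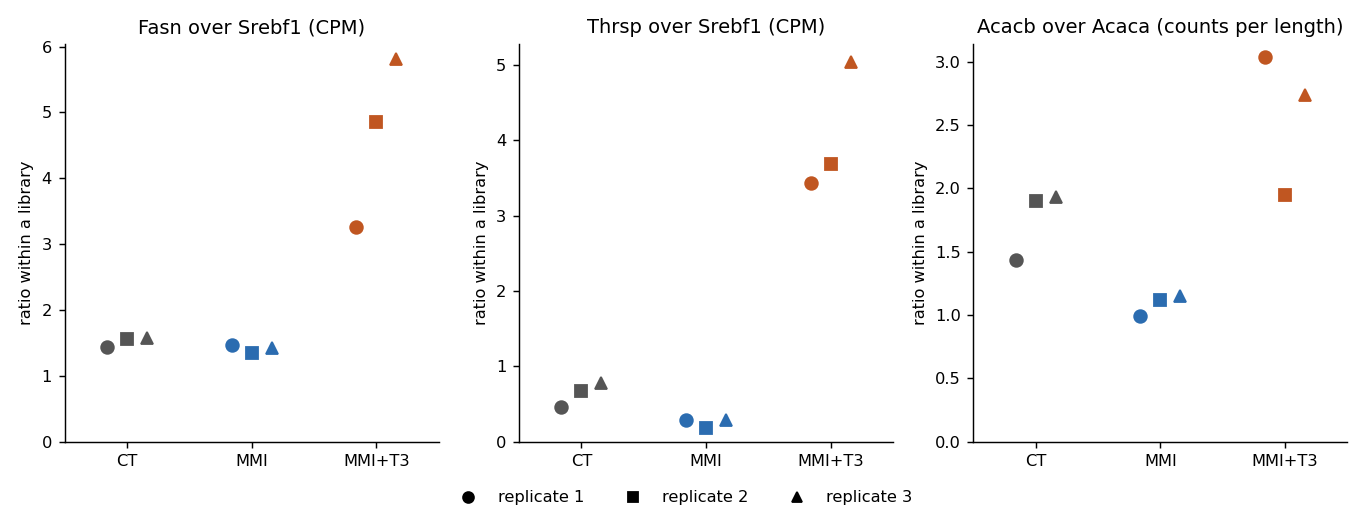
The ratio of Fasn to Srebf1 CPM, of Thrsp to Srebf1 CPM and of Acacb to Acaca counts per exon length is plotted for each library, by group and replicate number, on linear axes from 0. The Fasn to Srebf1 ratio stays between 1.35 and 1.57 in the 6 CT and MMI libraries and lies between 3.27 and 5.82 in MMI+T3.

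MMI replicate 2 was the highest MMI library for all 10 members. Its CPM was 2.28 times the mean of the other MMI libraries for Srebf1, 2.14 times for Fasn, 1.77 times for Acly, 1.65 times for Elovl6 and 2.86 times for Pnpla3, whose counts were low. For Me1 the ratio was 1.13, and for Thrsp it was 1.44. Among 9905 genes with a mean of at least 5 CPM in MMI, which leaves out Pnpla3, the ratio reached 1.5 for 4 of 9 members and for 2.52% of all genes. Gpam, which starts glycerolipid synthesis, G6pdx, which yields NADPH, and Scd2 were also high there, at 2.93, 2.61 and 2.47 times. In the other MMI libraries G6pdx and Scd2 averaged only 6.2 and 8.2 CPM. Not all related genes followed. The acetyl-CoA synthetase gene Acss2 was at 1.23 times, and Mlxipl was lowest in replicate 2, at 624 CPM compared to 724 and 948 CPM. Members varied within MMI+T3 as well, where replicate 1 was lowest for Thrsp, Me1, Fasn, Acaca, Acacb, Acly, Scd1, Elovl6 and Pnpla3. The sources used here do not say what sets these libraries apart.

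**Figure D4:**
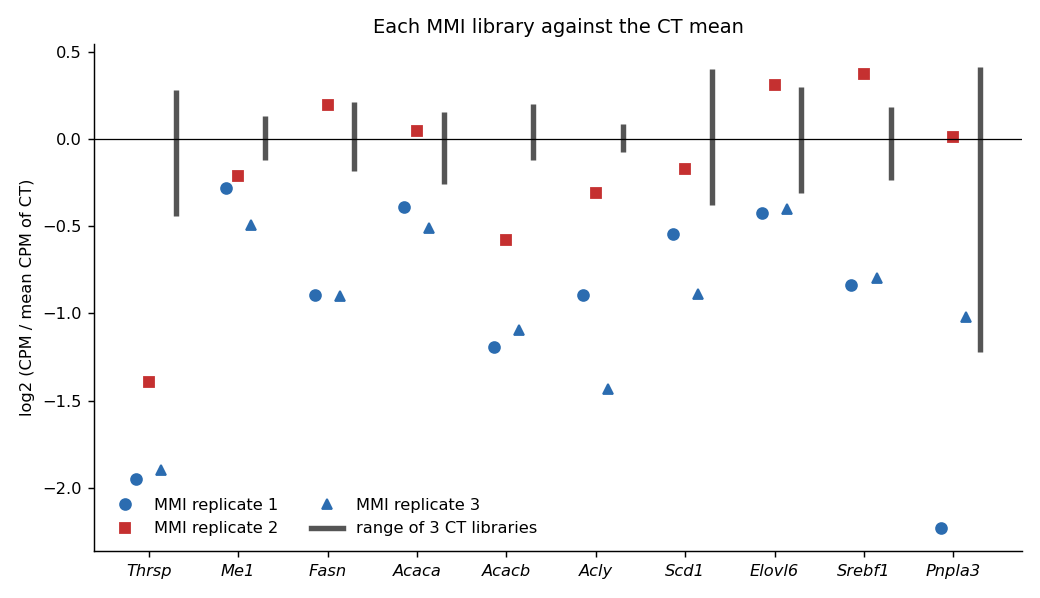
The CPM of each MMI library is plotted as a log2 ratio to the mean of CT for each member, with replicate 2 in red and grey bars for the range of the 3 CT libraries. Replicate 2 is the highest MMI point for every member and lies within or above the CT range for Fasn, Acaca, Scd1, Elovl6, Srebf1 and Pnpla3.

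To examine the pathway in hypothyroid liver, MMI mice were compared to CT mice. Thrsp and Acacb fell at an edgeR adjusted p under 0.05 and all 10 log2 fold changes were below 0, where 2.8% of 13925 genes fell and 2.48% rose. Thrsp fell by 1.71 on the log2 scale (adjusted p = 7.66e-04 by edgeR, SE 0.20). Acacb, at 105, 131 and 106 CPM in CT, fell by 0.91 (adjusted p = 0.0112 by edgeR, SE 0.17), and its call was lost without CT replicate 2 (adjusted p = 0.0617). The median log2 fold change of the members was -0.46, compared to 0.01 over all genes. In Thrsp, Me1, Acacb and Acly every MMI library lay below every CT library, as in 14.5% of genes. Without MMI replicate 2, 5 members were called lower, with Fasn at -0.88 (adjusted p = 0.00974), Acly at -1.13 (adjusted p = 0.00413) and Srebf1 at -0.80 (adjusted p = 0.016) beside Thrsp and Acacb. With all libraries, Acly was at -0.79 (95% interval -1.29 to -0.29, adjusted p = 0.0733), Fasn at -0.42 (95% interval -1.004 to 0.165) and Srebf1 at -0.29 (95% interval -0.91 to 0.33). Me1 was 186, 222 and 199 CPM in CT and its log2 fold change was -0.31 (adjusted p = 0.21), that of Scd1 was -0.49 (adjusted p = 0.265), that of Acaca was -0.25 (adjusted p = 0.465), that of Pnpla3 was -0.78 (adjusted p = 0.559) and that of Elovl6 was -0.12 (adjusted p = 0.813).

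MMI+T3 mice were then compared to CT mice, to place the level after T3 against that of untreated animals. This comparison shares its MMI+T3 libraries with the first and its CT libraries with the second. Of the 10 members 7 were higher in MMI+T3 and all 10 log2 fold changes were above 0, where 13.3% of 13847 genes were higher and 12.3% lower. Pnpla3 was 7.11 higher on the log2 scale (adjusted p = 1.89e-07 by edgeR, SE 0.31), Thrsp 2.96 (SE 0.19, adjusted p = 2.89e-06) and Me1 2.95 (SE 0.15, adjusted p = 7.62e-07). Elovl6, at 87.7, 111 and 73.4 CPM in CT, was 2.00 higher, Fasn 1.89, Acacb 1.38 and Acaca, at 130, 123 and 97.6 CPM in CT, 0.87, with adjusted p from 2.92e-05 to 0.00869. Acly, Scd1 and Srebf1 did not pass the test. Their 95% intervals were -0.08 to 0.41 for Acly, -0.21 to 0.82 for Scd1 (4761, 6911 and 4027 CPM in CT) and 0.03 to 0.55 for Srebf1. In 8 members, Srebf1 included, every MMI+T3 library was above every CT library, as in 22.2% of genes. The median log2 fold change of the members was 1.64, compared to 0.01 over all genes.

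Other genes of the pathway were described by lists that leave out the 10 members. Their counts in MMI+T3 against MMI stand beside 9.83% of all genes tested that rose and 7.18% that fell. In MMI+T3 against MMI, 2 of 6 genes of cytosolic acetyl-CoA supply rose. They were Acss2, the cytosolic acetyl-CoA synthetase, with a log2 fold change of 1.72 (adjusted p = 1.98e-04 by edgeR), and Cs, citrate synthase, with 0.92 (adjusted p = 7.74e-04). Acss2 was 204, 219 and 152 CPM in MMI, 476, 414 and 341 CPM in CT and 519, 587 and 807 CPM in MMI+T3, 3 groups that did not overlap. Of 6 genes listed under NADPH supply 2 rose, G6pdx by 1.18 (adjusted p = 0.0354) and Taldo1 by 0.51 (adjusted p = 0.0259). Taldo1 encodes a transaldolase of the pentose phosphate pathway, which does not itself yield NADPH. Neither call was stable when single libraries were left out, since that of G6pdx was kept only without MMI replicate 2 and that of Taldo1 only without MMI replicate 3 (adjusted p up to 0.105 and 0.101). Of 7 genes around malonyl-CoA and fatty acid synthase 2 rose, namely Mid1ip1, the paralog of Thrsp whose protein helps acetyl-CoA carboxylase to polymerise, by 1.09 (adjusted p = 0.00387), and Prkaa1, a catalytic subunit of AMP-activated kinase, by 0.62 (adjusted p = 0.0268, lost without MMI replicate 1 or 3 or MMI+T3 replicate 1 or 2, up to 0.112). Mid1ip1 was 85.3, 120 and 65.7 CPM in MMI and 173, 188 and 222 CPM in MMI+T3. Mlycd, malonyl-CoA decarboxylase, had a log2 fold change of -0.08 (95% interval -0.35 to 0.19).

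In elongation and desaturation 3 of 12 genes rose, Fads3 by 1.15 (adjusted p = 0.0085 by edgeR), Elovl2 by 0.61 (adjusted p = 0.0422) and Elovl1 by 0.45 (adjusted p = 0.0257). The call of Elovl2 was lost without MMI replicate 2 or 3 or MMI+T3 replicate 1 or 2 (up to 0.165), and that of Elovl1 without any library but MMI replicate 3 (up to 0.0835). In the control by SREBP-1c, ChREBP and LXR, 5 of 16 rose. These were Ppargc1b, a coactivator of SREBP, by 0.96 (adjusted p = 0.00804), Mlxipl by 0.85 (adjusted p = 0.0113), Scap, the escort of SREBP proteins, by 0.81 (adjusted p = 8.38e-04), Srebf2 by 0.79 (adjusted p = 0.00474) and Mlx, the partner of ChREBP, by 0.43 (adjusted p = 0.0258). Mlxipl was 724, 624 and 948 CPM in MMI and 1264, 1322 and 1605 CPM in MMI+T3. Nr1h3, which encodes the sterol receptor LXR alpha, had a log2 fold change of -0.07 (95% interval -0.34 to 0.19). Insig1 (0.60) and Insig2 (0.24), which hold SREBP proteins back in the endoplasmic reticulum, did not pass the test (adjusted p = 0.106 and 0.362). Insig1 was called by the DESeq2 Wald test (0.0399), with the replicate number as a block (0.0452) and without MMI replicate 1 (log2 fold change 0.89, adjusted p = 0.0248 by edgeR).

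Of 16 genes listed under glycerolipid synthesis 5 rose and 3 fell, where 9.83% and 7.18% of all genes did. The list is not of synthesis alone. Those that rose include the lipase genes Pnpla5 and Pnpla2, and Mttp, which encodes a lipid transfer protein. Pnpla5 was the first by size, Agpat2, an acyltransferase that makes phosphatidic acid, rose by 0.73 (adjusted p = 0.00474 by edgeR), and Gpat4, a glycerol phosphate acyltransferase, fell by 0.73 (adjusted p = 0.00548). Of 9 genes of hexose entry and glycolysis 4 rose. Pklr, the liver pyruvate kinase and a ChREBP target, rose by 1.00 (adjusted p = 0.015), Pfkfb1, the bifunctional enzyme of fructose 2,6-bisphosphate, by 1.00 (adjusted p = 0.00123) and Khk, ketohexokinase, by 0.97 (adjusted p = 0.0154). The calls of Pklr and Khk were lost without MMI replicate 1 or MMI+T3 replicate 2, and that of Khk also without MMI+T3 replicate 3. The median log2 fold changes of these lists, members included where a list holds them, were 0.25 to 0.48.

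**Figure D5:**
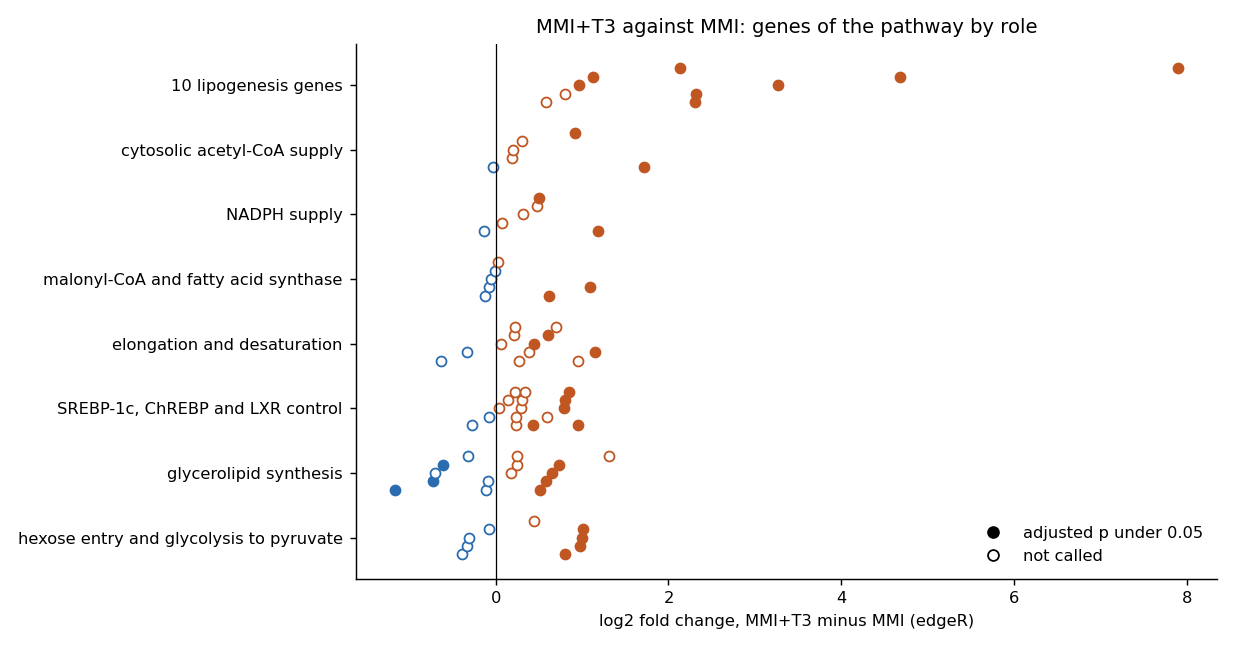
The log2 fold change in MMI+T3 minus MMI is plotted for the 10 members and for the other genes of 7 lists by role, with filled points for genes called at an edgeR adjusted p under 0.05; Pnpla5, with 0 counts in MMI, is left out. Members reach 7.90, while other called genes lie between -1.17 (Gpat3) and 1.72 (Acss2).

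In MMI against CT, where 2.8% of all genes tested fell and 2.48% rose, the same lists held few calls. Acss2 fell by 1.08 (adjusted p = 0.00414 by edgeR) and Scap by 0.87 (adjusted p = 0.0013), and Pfkfb1 fell by 0.58 (adjusted p = 0.0347), a call that was lost without any library but MMI replicate 3 (up to 0.15). The fatty acid elongases Elovl3, Elovl2 and Elovl5 fell by 2.49, 1.08 and 0.93 (adjusted p = 1.01e-04, 0.0025 and 0.0113), 3 of 12 genes of that list, with the call of Elovl5 lost without CT replicate 2 (0.0606). Pgd, which yields NADPH in the pentose phosphate pathway, rose by 1.10 (adjusted p = 0.00401), and Gpat3 by 1.89 (adjusted p = 0.00134). In MMI+T3 against CT, G6pdx (2.32), Pgd (1.41) and Tkt (0.49) were higher (adjusted p = 9.4e-06, 7.79e-05 and 0.0086), among 4 of 6 genes listed under NADPH supply, where 13.3% of all genes were higher and 12.3% lower. Tkt encodes a transketolase, which does not itself yield NADPH. In elongation and desaturation 3 of 11 genes were higher and 5 lower. Scd2 (1.37) and Fads3 (1.29) were among the higher (adjusted p = 0.00627 and 0.00126), and Elovl3 (-1.80) and Elovl5 (-0.71) among the lower (adjusted p = 4.84e-05 and 0.00331). Mlxipl was 0.87 and Ppargc1b 1.07 higher (adjusted p = 7.06e-04 and 0.00145), with 2 of 16 genes of their list called.

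Genes that follow feeding and the clock were also measured, since lipogenic transcripts vary with both. In MMI+T3 against MMI, 4 of 14 feeding and fasting genes fell, among them Angptl4, an inhibitor of lipoprotein lipase, by 2.84 and Trib3, a stress-induced pseudokinase, by 2.06 (adjusted p = 5.84e-05 and 1.0e-04 by edgeR), and Pklr rose, where 7.18% of all genes fell and 9.83% rose. Of 15 clock genes Per3 rose by 1.41, and Nr1d1 and Bhlhe41 fell by 2.18 and 3.64 (adjusted p = 0.00534, 0.00252 and 0.00229). Bhlhe41 had 17, 39 and 51 counts in MMI and 3, 2 and 3 counts in MMI+T3, so its fold rests on a group near 0 counts. In MMI against CT, Fgf21, a fasting hormone of liver, had 1, 0 and 3 counts in CT and 18, 29 and 48 counts in MMI (adjusted p = 0.0083), so that any fold rests on a group near 0 counts. In the same comparison 2 of 14 feeding and fasting genes rose and 1 fell, where 2.48% and 2.8% of all genes did, and of 15 clock genes only Per1 passed the test and rose by 1.79 (adjusted p = 0.0356, lost without MMI replicate 2 or 3 or CT replicate 1 or 2, up to 0.129). In MMI+T3 against CT, 3 of 14 feeding and fasting genes were higher and 7 lower, where 13.3% and 12.3% of all genes were. Among them Angptl4 fell by 2.79 and Irs2, an insulin receptor substrate, fell by 1.85 on the log2 scale (adjusted p = 1.87e-04 and 8.44e-04 by edgeR). Of 14 clock genes 2 were higher and 2 lower. The part of food intake or time of day in the members' changes was not tested.

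Macrophage markers moved with the MMI+T3 group. All 12 macrophage markers rose in MMI+T3 against MMI, where 9.83% of all genes rose and 7.18% fell. Their summed CPM was 148 to 188 in CT, 121 to 159 in MMI and 349 to 679 in MMI+T3. The 12 endothelial markers summed to 294 to 387 CPM in CT, 408 to 492 CPM in MMI and 432 to 453 CPM in MMI+T3, and the 12 stellate markers to 263 to 430.1, 343 to 412 and 299.6 to 407 CPM. Of 10 hepatocyte markers 3 fell (Alb, Ttr, Fabp1) and Serpina1a rose in MMI+T3 against MMI, with a median log2 fold change of 0.118. Their sums were 48060 to 51560 CPM in CT, 36030 to 42320 CPM in MMI and 30470 to 35160 CPM in MMI+T3. Alb, the most abundant of them, was 23490 to 25440, 18170 to 21330 and 11620 to 13000 CPM in the same order. Among adipocyte markers, which matter here because adipocytes express the whole pathway, 5 were tested, 3 fell and Lipe rose, and their sum was 274.5 to 753 CPM in MMI+T3 compared to 1980 to 3272 CPM in MMI. Nearly all of this sum was Car3, a carbonic anhydrase, with 3816 to 4440 CPM in CT, 1906 to 3219 CPM in MMI and 227 to 707 CPM in MMI+T3. The 4 other markers summed to 52.5 to 73.5, 48.8 to 73.8 and 45.7 to 48.1 CPM. Retn, a defining marker, had 1 to 7 counts in each MMI and MMI+T3 library, and Adipoq, Plin1, Lep and Cidea were not analysed here. The part of macrophage RNA in the members' changes was not tested.

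Genes of both count tables with a mean of at least 5 CPM over the 9 libraries were compared to the members, with predicted genes left out. These non-members were ranked by how closely their log2(CPM + 1) followed the mean standardised pattern of the members over the 9 libraries. The 5 closest were Nubp1, an iron-sulfur assembly factor (Pearson r = 0.988), Eno1, an enolase of glycolysis (0.984), Nmi (0.98), Irak4, a kinase of innate immune signalling (0.98), and Pla2g15, a lysosomal phospholipase (0.979). All 9 points share their libraries and 3 groups, so these are descriptions. Eno1 was 495, 531 and 471 CPM in CT, 421, 506 and 379 CPM in MMI and 807, 1008 and 967 CPM in MMI+T3. Nubp1 moved little, from between 27.8 and 30.8 CPM in MMI to between 35.0 and 35.6 CPM in MMI+T3.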

How the data were processed

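Read counts per gene were used as the authors deposited them, whole numbers without normalization, with MMI and MMI+T3 (17758 genes) and CT (17477 genes) in separate tables. The lowest summed count in the first table was 10, so low genes had been left out, and 21 symbols turned into dates in each table were restored from gene IDs. The study's methods name stranded mRNA libraries, Trimmomatic, STAR, HTSeq and DESeq2. By contrast, HISAT2 2.1.0, HTSeq 0.6.1p1 and the build GRCm38 stand in the submitters' processing notes. Which aligner made the counts could not be settled, and the strand setting and the treatment of reads with several matches are not given in the sources used here. Groups and replicate numbers came from the sample titles. The labels do not name the mouse behind each library. The study's n of 3 for these data may be mice, and otherwise p-values measure a spread between libraries that may be technical. Coordinates and exon lengths came from GENCODE M21 (GRCm38).

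The 6 libraries of a comparison were fitted by themselves (edgeR 4.0.16, R 4.3.3) after TMM scaling and edgeR's filter on low counts (minimum 10). Quasi-likelihood p-values were adjusted by Benjamini-Hochberg over all genes tested, with a threshold of 0.05. Only genes in both tables entered comparisons with CT. Fold changes are log2 values with their standard error (SE), and intervals are 95% intervals of the fit, not adjusted. The fit was also run on simulated counts, with an outcome that is not given here. Those counts were drawn for each gene independently, so they hold no library in which related genes shift together, as in MMI replicate 2. As alternatives, scaling was done by upper quartile, by library totals or by DESeq2 size factors, and other fits used no filter, a filter of 50 counts in 3 libraries, the DESeq2 1.42.0 Wald test, all 9 libraries in 1 fit, the replicate number as a block, and leaving out each library.

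The members and lists were chosen with earlier results of these data known, and no list was tested as a set. By rule, all members were named, with Mid1ip1, Mlxipl, Insig1, Insig2, Nr1h3, Srebf2, Pklr, Scd2, Mlycd, Dio1 and Serpina7 whatever their result, the 3 other genes of each list with the smallest adjusted p among those called, and the 5 genes most like the members. Not every gene under this rule is reported here. Gpam, Mlx, Lipe, Retn and the cell type markers were named outside this rule after their values had been seen, as was the ratio of members to Srebf1. So were Gpat3, Pnpla2 and Mttp in MMI+T3 against MMI.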

Additional observations from a re-analysis of the deposited data

How the results depend on the processing

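In MMI+T3 against MMI, no member changed direction under any of 140 alternative values, and 129 stayed on the same side of the threshold. Of the exceptions, 3 were lost calls of Acly and 8 were gained calls, all of Scd1 and Srebf1. Scd1 was called without a filter (adjusted p = 0.0489 by edgeR), with the stricter filter (0.0454), in the fit of all libraries (0.0367) and with the DESeq2 Wald test. Deviations of same-numbered libraries were weakly correlated (-0.073 to 0.172), and not every library correlated best with its own number. With 3 libraries per group this cannot exclude that replicate numbers pair the samples. With the replicate block, 1462 genes were called higher and 1068 lower in MMI+T3 against MMI (9 members higher, with Scd1), 475 higher and 509 lower in MMI against CT (3 members lower, with Acly), and 1958 higher and 1801 lower in MMI+T3 against CT (8 members higher, with Srebf1). The counts of all genes were 1387 and 1013, 346 and 390, and 1846 and 1702 without it. Leaving out each library in turn gave 658 to 1103 genes lower in MMI+T3 against MMI, the lowest without MMI+T3 replicate 1. In MMI against CT it gave 155 to 347 genes higher and 186 to 441 lower, with the lowest counts without CT replicate 2 (155 and 186) or CT replicate 3 (183 and 199), and 1 to 5 members lower. The DESeq2 Wald test called 524 genes higher and 630 lower there. In that comparison the log2 fold change of Elovl6 was 0.016 with library totals and -0.4 to 0.049 without each library, and that of Nr1h3 was 0.013 with upper quartile scaling and 0.114 with library totals. Without each library the log2 fold change ranged over -0.08 to 0.018 for Nr1h3, -0.15 to 0.98 for Scd2 and -0.16 to 0.16 for Mlxipl. In MMI against CT 129 of 139 values of members kept their side and direction, 6 became calls (4 of Acly, with adjusted p from 0.00413 to 0.0464), 1 call was lost and 3, of Elovl6, changed sign, and in MMI+T3 against CT 138 of 140 kept them. There, Nr1h3 was at 0.012 with library totals and Srebf1 was called (adjusted p = 0.0277). None of these reversed values passed the test. With the longest transcript in place of all exons, levels per length in CT were 207 CPM per kb for Thrsp, 61.5 for Me1, 12.3 for Acaca, 88.0 for Acly and 107 for Srebf1. Where no other cause is given, the cause was not tested. Low counts limit Pnpla3 in CT and MMI, where its 95% interval of the log2 fold change in MMI against CT was -2.21 to 0.65.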
